A study of Homo sapiens with 24 samples.

Results

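The 10 genes described here encode chemokines that airway epithelial cells can make: *CXCL1*, *CXCL2*, *CXCL3*, *CXCL5*, *CXCL8*, *CXCL16*, *CCL2*, *CCL20*, *CCL28* and *CX3CL1*. They were chosen by name, and found by symbol through the transcript identifiers of the count table, and the counts of their 20 transcripts were summed per gene. All 10 were present among the 33127 genes of the table. The cells were A549, a line established from a human lung adenocarcinoma, exposed to 100 nM dexamethasone (dex), a synthetic glucocorticoid (GC), or to the vehicle ethanol (EtOH, 0.02% by volume). Poly-A RNA was sequenced after 1, 3, 5, 7, 9 or 11 h, as 2 libraries per group and 12 groups (24 libraries). Cells of both treatments were grown in F-12K medium with 10% serum, and no library from before the exposure and no library with an inflammatory stimulus was among them. Each library held 6708864 to 13748598 counts with dex and 7813353 to 13619043 with EtOH. A549 is 1 cancer-derived line, and in bulk RNA fewer transcribing cells and less RNA per cell cannot be told apart.

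Chemokines are small proteins that bind receptors on leukocytes and steer their migration. The epithelium of the airway releases them on contact with bacteria, particles or cytokines, and much of that induction runs through the transcription factors NF-kappaB and AP-1 and through the stability of mRNAs with AU-rich elements. GCs act through the glucocorticoid receptor (GR), a nuclear receptor, and are used against airway inflammation, where lowered chemokine output is a known part of their action. *CXCL1*, *CXCL2*, *CXCL3*, *CXCL5* and *CXCL8* encode attractants of neutrophils that act through the receptor CXCR2, and CXCL8 also through CXCR1. CCL2 attracts monocytes through CCR2, CCL20 attracts dendritic cells and lymphocytes through CCR6, and CCL28 is a mucosal chemokine that binds CCR10. CXCL16 and CX3CL1 are made as transmembrane proteins that metalloproteases can cut free.

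The 5 neutrophil attractants lie on chromosome 4, where GENCODE 29 places *CXCL8* at chr4:73740506-73743716 and *CXCL1* at chr4:73869393-73871242 on the plus strand of GRCh38. *CXCL5* at chr4:73995642-73998779, *CXCL3* at chr4:74036589-74038807 and *CXCL2* at chr4:74097035-74099293 lie on the minus strand. *CXCL16* (chr17:4733526-4739922) and *CCL2* (chr17:34255218-34257203) are on chromosome 17. *CCL20* is at chr2:227805739-227817564, *CCL28* at chr5:43376645-43412391 and *CX3CL1* at chr16:57372458-57385048. RefSeq promoter windows on GRCh38.p14, from 250 bases before to 50 bases after a start, were matched for 7 of the 10 genes, in 8 windows. *CCL2*, *CXCL16* and *CX3CL1* had no entry there. The letters GGAANNTCC, which describe a kappaB site and were searched on both strands, occurred in 5 of the 7 genes, namely all 5 neutrophil attractants, against 4.56% of 35116 promoter windows. The 5 sequences are shown because these genes share those letters, and among them *CXCL1* fell and *CXCL2* rose with dex. Each is the 120 bases that end just before the RefSeq start, 5′ to 3′ on the gene's own strand, with the kappaB match in capitals. The RefSeq start of *CXCL1* is the GENCODE one, but those of *CXCL2*, *CXCL3*, *CXCL5* and *CXCL8* lie downstream of the GENCODE starts given above, so part of each of these stretches lies within the GENCODE gene.
CXCL1, chr4:73869273-73869392, plus strand: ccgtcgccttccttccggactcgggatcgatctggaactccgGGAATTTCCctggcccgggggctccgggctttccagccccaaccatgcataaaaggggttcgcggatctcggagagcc
CXCL2, chr4:74099196-74099315, minus strand: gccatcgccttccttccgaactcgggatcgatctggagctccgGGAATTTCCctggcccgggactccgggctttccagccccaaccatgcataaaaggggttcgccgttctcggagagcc
CXCL3, chr4:74038690-74038809, minus strand: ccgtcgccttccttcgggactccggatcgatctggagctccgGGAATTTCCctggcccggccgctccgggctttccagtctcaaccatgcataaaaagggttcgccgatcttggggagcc
CXCL5, chr4:73998678-73998797, minus strand: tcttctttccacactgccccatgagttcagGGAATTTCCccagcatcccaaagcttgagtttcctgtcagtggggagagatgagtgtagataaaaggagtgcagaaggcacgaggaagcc
CXCL8, chr4:73740449-73740568, plus strand: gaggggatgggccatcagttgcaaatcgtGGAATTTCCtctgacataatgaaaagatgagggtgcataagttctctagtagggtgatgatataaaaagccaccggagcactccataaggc
All 5 matches spelled GGAATTTCC, at bases -78 to -70 from the RefSeq start in *CXCL1* and *CXCL3*, -77 to -69 in *CXCL2*, -90 to -82 in *CXCL5* and -91 to -83 in *CXCL8*. The printed stretches of *CXCL1* and *CXCL2* were identical in 93.4% of their aligned columns, those of *CXCL1* and *CXCL3* in 90.8% and those of *CXCL1* and *CXCL8* in 43.6%. Over the whole 250 bases before the start *CXCL1* and *CXCL3* were the most alike, with 81.4% against 70.4% for *CXCL1* and *CXCL2* and 73.3% for *CXCL2* and *CXCL3*. The AP-1 letters TGANTCA (the same on both strands) occurred in 7.71% of all windows and in *CXCL8* among these genes, as TGACTCA at -137 to -131. Neither the core letters of a GR element, ACANNNTGT (the same on both strands, in 5.37% of all windows), nor the NF-IL6 letters TTNNGCAAT (either strand, in 2.31%) occurred in the matched windows. A match of letters is a description of the sequence, not of binding.

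The identity of the cells and the exposure were checked first. All 6 epithelial marker genes passed the filter on low counts, and *KRT18*, a keratin, was the most counted with a median of 2522 CPM (counts scaled to a common library size with TMM normalization). Of 8 alveolar type II markers 1 passed, the lipid transporter *ABCA3* at a median of 32.2 CPM, and the surfactant genes *SFTPA1* and *SFTPA2* had no count, so the libraries did not show an alveolar type II profile. The 11 leukocyte markers, other possible sources of chemokine mRNA, summed to 1.72 to 5.70 CPM per library. *CD14* was the most counted of them at a median of 1.76 CPM, and *CD3D*, *CD3E*, *FCGR3A*, *MS4A1* and *TYROBP* had no count. Of 5 endothelial markers 4 were found by symbol, all but *PECAM1*, and these summed to at most 1.21 CPM, with *CDH5* leading at 0.279. Of 9 textbook targets of GCs, 8 passed the filter, and 7 of the 8 rose with dex at 1 h, against 0.523% of all genes tested, and all 8 at each later time, against 5.31% to 13.4%. *TSC22D3*, which encodes the GC-induced leucine zipper protein, rose by 3.25 ± 0.16 (log2, standard error) at 1 h and by 4.45 ± 0.13 at 3 h (edgeR adjusted p = 3.01e-10 and 1.16e-21). *PER1*, a circadian regulator, rose by 2.66 ± 0.17 at 1 h and *KLF9*, a transcription factor, by 1.84 ± 0.21. *FKBP5*, a co-chaperone of GR, was 0.52 ± 0.14 at 1 h (adjusted p = 0.135) and rose by 3.37 ± 0.11 at 3 h.

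The chemokine mRNAs of unstimulated A549 cells spanned about 3 orders of magnitude. Divided by transcript length, the median level over the 12 EtOH libraries was 121.7 CPM per kilobase for *CXCL5* (102.3 to 140.6 over the libraries), 22.7 for *CCL2* (19.2 to 26.3), 5.85 for *CXCL1* (5.06 to 7.75) and 5.85 for *CXCL16* (4.50 to 7.37). It was 2.45 for *CXCL8* (1.59 to 3.83), 1.92 for *CXCL2* (0.844 to 2.69) and 0.789 for *CXCL3* (0.351 to 1.01). *CCL28* at 0.225, *CCL20* at 0.174 and *CX3CL1* at 0.101 were the lowest. The ranges of *CXCL5* and *CCL2* overlapped with no other member, whereas *CXCL1* and *CXCL16* overlapped, and so did each pair of neighbours in the order from *CXCL8* down to *CX3CL1*. With dex the medians were 64.0 for *CXCL5*, 7.63 for *CCL2*, 4.30 for *CXCL16*, 3.05 for *CXCL2*, 1.65 for *CXCL1*, 0.697 for *CXCL8* and 0.405 for *CXCL3*. *CXCL2* thus stood below *CXCL1* and *CXCL8* in EtOH and above both in dex. In EtOH alone, 3.33% of the 19897 genes and unjoined transcripts tested differed between time points and 0 of 7 tested chemokines did (edgeR), with no unadjusted p under 0.05 and the lowest, 0.0878, for *CXCL16*. DESeq2 also called 0, with an adjusted p for 3 of the 7. The number called over all genes, 662, depended on single libraries and was 23 without EtOH 7 h replicate 1 and 2249 without EtOH 9 h replicate 1.

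**Figure D1:**
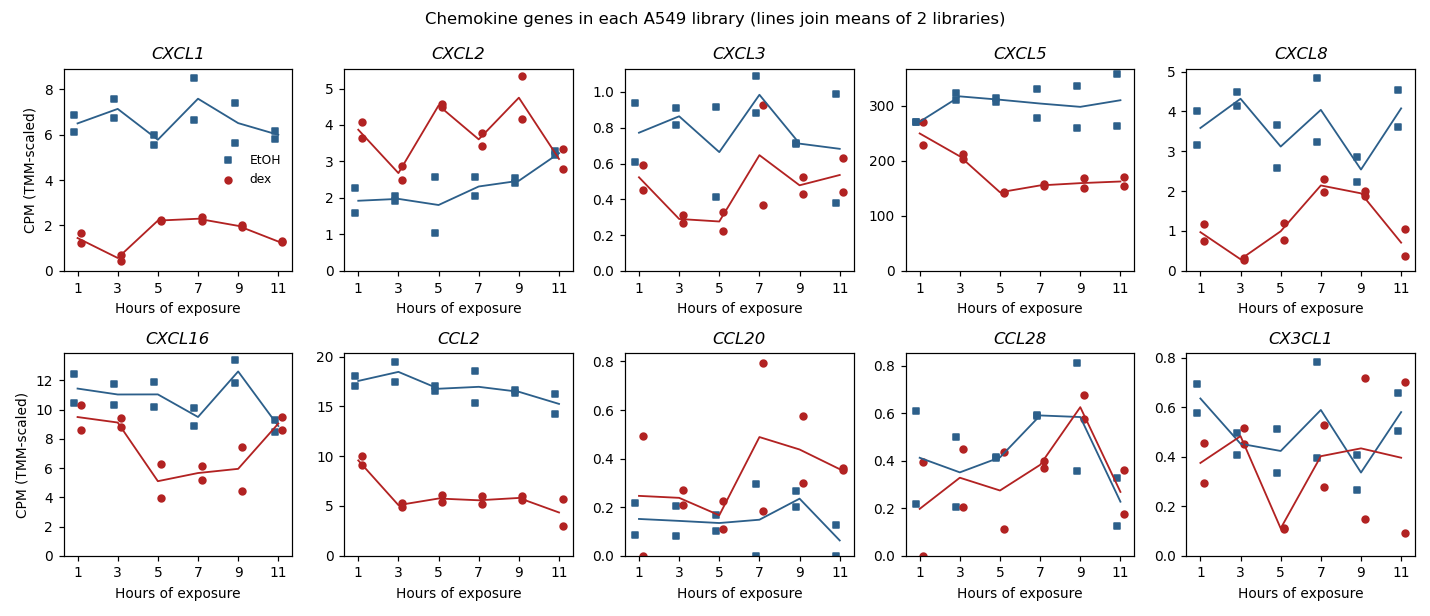
TMM-scaled CPM (linear axes from 0, each gene with its own scale) of the 10 chemokine genes against hours of exposure, with dex libraries as red circles, EtOH libraries as blue squares and lines through the mean of the 2 libraries. The dex libraries of *CXCL1* (0.414 to 2.38 CPM) all sit below its EtOH libraries (5.55 to 8.50 CPM), while those of *CXCL2* sit above at 5 of 6 times.

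The central question was which chemokines dex changed and when. *CXCL1*, *CXCL8*, *CCL2*, *CXCL5* and *CXCL16* fell, each at 3 or more of the 6 time points, and *CXCL2* rose at 5 and 9 h. Enough counts for a test were present for 7 of the 10, all but *CCL20*, *CCL28* and *CX3CL1*, and a change was called at an edgeR adjusted p of at most 0.1. At 1 h, 3 of the 7 fell and none rose, against 0.342% of all genes tested that fell and 0.523% that rose. At 3 h, 4 fell and none rose (background 5.29% and 7.66%). At 5 h, 5 fell and 1 rose (11.9% and 11.2%), and at 7 h, 5 fell and none rose (12.4% and 13.4%). At 9 h, 4 fell and 1 rose (8.42% and 9.79%), and at 11 h, 4 fell and none rose (3.27% and 5.31%). The median log2 fold change of the 7 was -0.53, -1.56, -1.28, -0.89, -0.89 and -0.94 at the 6 times in turn. The median over all genes was lowest at -0.0097, at 9 h. At 1, 3 and 5 h the median of the 7 was the value of *CXCL3*, a rarely counted gene that was not called at any time.

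*CXCL1* fell at every time point. Its level with dex was 1.68 and 1.21 CPM in the 2 libraries at 1 h, 0.414 and 0.720 at 3 h, 2.18 and 2.24 at 5 h, 2.21 and 2.38 at 7 h, 2.01 and 1.95 at 9 h, and 1.32 and 1.27 at 11 h. With EtOH it was 6.87 and 6.12, 7.55 and 6.72, 5.55 and 6.0, 8.50 and 6.66, 5.62 and 7.40, and 6.17 and 5.81 at the same times. No dex library reached the lowest EtOH library. The log2 fold change was -2.11 ± 0.30 (standard error, n = 2 against 2) at 1 h, -3.61 ± 0.35 at 3 h, -1.39 ± 0.29 at 5 h, -1.73 ± 0.26 at 7 h, -1.70 ± 0.28 at 9 h and -2.20 ± 0.32 at 11 h, with edgeR adjusted p between 1.91e-09 and 0.000671. At 3 h, the deepest point, the EtOH level was 12.2-fold the dex level. The dex libraries of that time held 4 and 8 counts.

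*CXCL8*, which encodes interleukin-8, fell at 5 of 6 time points. Dex libraries held 1.18 and 0.758 CPM at 1 h, 0.310 and 0.270 at 3 h, 1.2 and 0.784 at 5 h, 2.30 and 1.98 at 7 h, 2.01 and 1.88 at 9 h, and 1.05 and 0.362 at 11 h. EtOH libraries held 4.0 and 3.17, 4.49 and 4.15, 2.57 and 3.67, 4.85 and 3.23, 2.85 and 2.23, and 4.53 and 3.62. The treatments did not overlap at any time, although the gap was narrow at 9 h. The log2 fold change was -1.80 ± 0.38 at 1 h, -3.85 ± 0.45 at 3 h (edgeR adjusted p = 7.64e-08, a 14.5-fold difference, on 3 counts in each dex library), -1.66 ± 0.39 at 5 h, -0.89 ± 0.30 at 7 h and -2.49 ± 0.45 at 11 h. The dex libraries at 11 h held 12 and 4 counts, and the log2 fold change was -3.43 without the first of them. The value at 9 h, -0.39 ± 0.33, did not pass (adjusted p = 0.512). The call at 1 h (adjusted p = 0.0236) was lost with DESeq2 (0.269), with the most counted transcript alone (0.113) and without EtOH replicate 1 (0.121). The call at 7 h (0.0324) was lost with DESeq2 (0.284), without dex replicate 1 (0.179) or 2 (0.221) and without EtOH replicate 1 (0.361, log2 fold change -0.58).

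*CXCL2* moved the other way and rose at 5 and 9 h. It held 3.65 and 4.09 CPM with dex against 2.26 and 1.58 with EtOH at 1 h, 2.48 and 2.88 against 2.04 and 1.91 at 3 h, and 4.59 and 4.48 against 1.03 and 2.58 at 5 h. At 7 h it held 3.77 and 3.44 against 2.57 and 2.06, at 9 h 4.16 and 5.33 against 2.41 and 2.53, and at 11 h 3.34 and 2.80 against 3.27 and 3.18. Dex libraries were thus above EtOH libraries at each time but the last, where they overlapped. The gene rose by 1.27 ± 0.33 at 5 h (edgeR adjusted p = 0.00341) and by 0.98 ± 0.28 at 9 h (0.0283). The values of 1.02 ± 0.32 at 1 h, 0.44 ± 0.33 at 3 h, 0.65 ± 0.30 at 7 h and -0.07 ± 0.31 at 11 h did not pass (adjusted p = 0.285, 0.484, 0.130 and 0.951). With replicate number as a block the value at 1 h passed (1.01, adjusted p = 0.0614). The call at 5 h was lost without EtOH replicate 1 (0.81, adjusted p = 0.123) and the value was 2.13 without EtOH replicate 2. The call at 9 h was lost without dex replicate 2 (0.77, adjusted p = 0.359) and with DESeq2 (0.201).

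The contrast of *CXCL2* with *CXCL1* and *CXCL8* was visible inside each library, where depth cancels. The ratio of *CXCL2* to *CXCL1* counts had a median of 0.319 over the 12 EtOH libraries (0.185 to 0.547) and of 2.20 over the 12 dex libraries (1.44 to 6.0). For *CXCL2* over *CXCL8* it was 0.601 in EtOH (0.400 to 1.14) and 3.49 in dex (1.64 to 10.7). Neither ratio overlapped between the treatments at any time. A ratio shows that the genes changed unequally, not which one did. The transcripts share sequence, so that 9.24% of the 50-base stretches of *CXCL2* also occur in *CXCL1* or *CXCL3*, as do 5.73% of *CXCL1* and 5.26% of *CXCL3* among the other two, and reads from those stretches may have been counted for either gene.

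**Figure D2:**
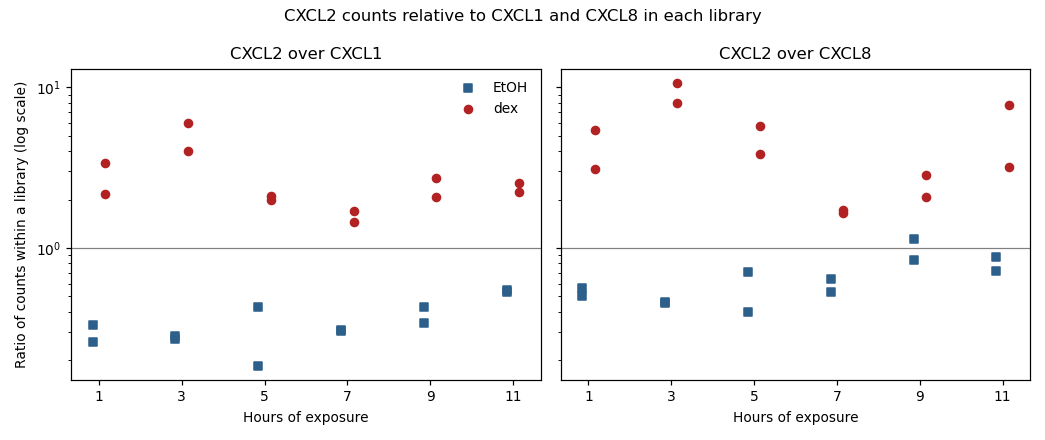
Ratio of *CXCL2* counts to *CXCL1* counts (left) and to *CXCL8* counts (right) in each library on a log axis against hours of exposure, dex as red circles and EtOH as blue squares, with a grey line at equal counts. All dex libraries lie above 1 for both ratios (lowest 1.44 and 1.64), and EtOH libraries reach at most 0.547 and 1.14.

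*CXCL3*, the third member of the closely related trio, was counted too rarely to place. Dex libraries held 0.224 to 0.925 CPM (2 to 7 counts each) and EtOH libraries 0.378 to 1.09 CPM (3 to 13 counts). Dex libraries lay below EtOH libraries at 4 of 6 times. The log2 fold change was lowest at 3 h, -1.56 ± 0.66, and highest at 11 h, -0.38 ± 0.66, and none passed (edgeR adjusted p = 0.155 at 3 h, unadjusted p = 0.0256). Over all libraries there were 53 counts with dex (95% Poisson interval 39.7 to 69.3, counting error only) and 101 with EtOH (82.3 to 122.7).

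*CXCL5*, the most abundant of the 10 chemokines per length, fell from 3 h on. With dex it held 270.1 and 229 CPM at 1 h, 204 and 212 at 3 h, 142 and 144 at 5 h, 154 and 157 at 7 h, 168 and 151 at 9 h, and 171 and 154 at 11 h. With EtOH it held 271 and 271, 324 and 310.2, 308 and 314, 277 and 331, 336 and 259.6, and 357 and 263. The treatments were nearly level at 1 h (-0.11 ± 0.11, edgeR adjusted p = 0.947) and well apart from 3 h on. The gene fell by 0.62 ± 0.10 at 3 h, 1.13 ± 0.10 at 5 h (adjusted p = 1.35e-12), 0.97 ± 0.08 at 7 h, 0.89 ± 0.13 at 9 h and 0.94 ± 0.16 at 11 h (0.00203). The call at 11 h was lost without EtOH replicate 1 (-0.69, adjusted p = 0.135). With 1170 to 3774 counts per library, it was the best measured of the 10.

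*CCL2*, the monocyte attractant, fell at every time point. It went from 10.1 and 9.09 CPM with dex at 1 h to 4.86 and 5.31 at 3 h, 6.12 and 5.38 at 5 h, 5.98 and 5.16 at 7 h, 5.6 and 6.01 at 9 h, and 5.71 and 2.98 at 11 h. EtOH libraries held 17.0 and 18.1, 17.4 and 19.5, 16.5 and 17.0, 15.3 and 18.6, 16.3 and 16.6, and 16.2 and 14.2. The highest dex library lay below the lowest EtOH library over the whole course. The log2 fold change was -0.86 ± 0.18 at 1 h (edgeR adjusted p = 0.0228), -1.87 ± 0.18 at 3 h (2.22e-09, a 3.65-fold difference), -1.55 ± 0.20 at 5 h, -1.59 ± 0.18 at 7 h, -1.48 ± 0.19 at 9 h and -1.81 ± 0.27 at 11 h. The call at 1 h was lost without EtOH replicate 1 (-0.90, adjusted p = 0.118) or EtOH replicate 2 (-0.82, adjusted p = 0.381).

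*CXCL16*, a membrane-anchored chemokine and scavenger receptor, fell at 5, 7 and 9 h. Dex libraries held 10.4 and 8.64 CPM at 1 h, 8.79 and 9.45 at 3 h, 3.93 and 6.27 at 5 h, 6.17 and 5.16 at 7 h, 7.47 and 4.43 at 9 h, and 8.60 and 9.49 at 11 h. EtOH libraries held 10.4 and 12.5, 10.3 and 11.8, 10.2 and 11.9, 10.1 and 8.91, 11.9 and 13.4, and 9.32 and 8.44. The groups overlapped at 11 h only. The gene fell by 1.13 ± 0.22 at 5 h, 0.73 ± 0.20 at 7 h and 1.14 ± 0.24 at 9 h (edgeR adjusted p = 0.000128, 0.00659 and 0.00365). The values were -0.25 ± 0.20 at 1 h, -0.29 ± 0.18 at 3 h and 0.03 ± 0.21 at 11 h (0.922, 0.383 and 0.977). The call at 7 h was lost with DESeq2 (0.115), with the most counted transcript alone (-0.54, 0.131) and without dex replicate 2 (0.118), and that at 9 h without dex replicate 2 (-0.74, 0.215). *CXCL16* overlaps *MED11*, a gene on the opposite strand, and although the libraries were stranded, strand use in the counting is not stated, so reads of the overlap may belong to either.

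**Figure D3:**
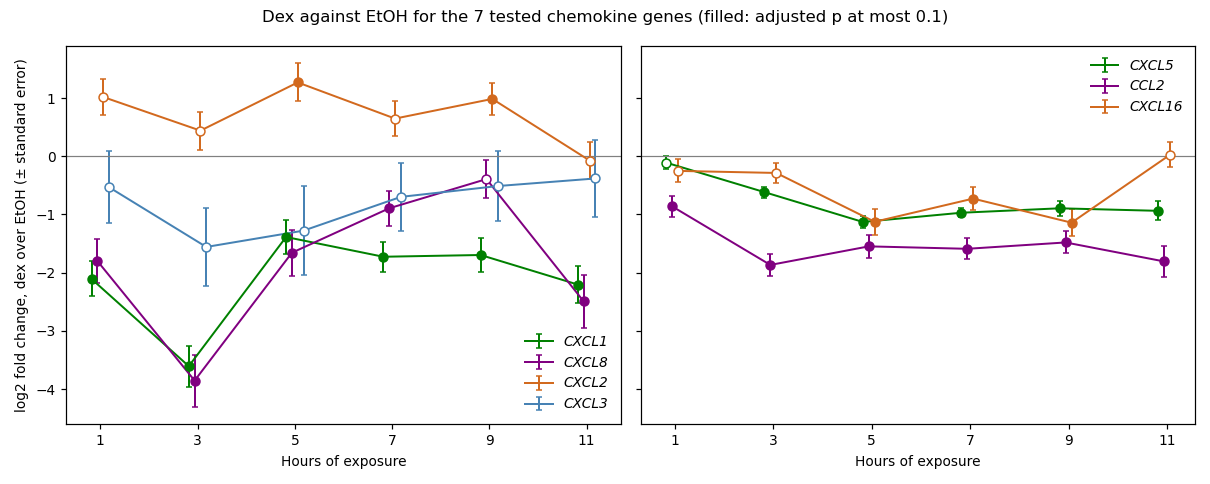
Log2 fold change of dex over EtOH against hours of exposure for *CXCL1*, *CXCL8*, *CXCL2* and *CXCL3* (left) and *CXCL5*, *CCL2* and *CXCL16* (right), points shifted sideways for legibility, bars of 1 standard error, 2 against 2 libraries, filled where the edgeR adjusted p is at most 0.1. *CXCL1* and *CXCL8* are lowest at 3 h (-3.61 and -3.85), and *CXCL16* is at 0.03 at 11 h.

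The remaining 3 genes did not pass the filter on low counts. *CCL20* had 37 counts over the 12 dex libraries (95% Poisson interval 26.1 to 51.0) and 19 over the 12 EtOH libraries (11.4 to 29.7), with 0 to 6 counts per dex library and 0 to 3 per EtOH library. Its mean level was 0.322 ± 0.216 CPM with dex (SD, n = 12) and 0.146 ± 0.096 with EtOH. The libraries of the 2 treatments overlapped at 1, 5 and 7 h and were apart at 3, 9 and 11 h. The gap at 3 h came from depth scaling, since replicate 1 of either treatment held 2 counts (0.207 CPM in dex, 0.204 in EtOH). At 9 h each dex library held 4 counts and the higher EtOH library 3. Groups of 2 libraries can also separate by chance, and how often other genes did so was not counted. An exact permutation test that exchanged treatments within time points (46656 regroupings, two-sided, 1 of 3 such tests) gave p = 0.0164. *CCL28* had 42 counts with dex and 55 with EtOH (p = 0.245), and *CX3CL1* 41 and 64 (p = 0.108, by the same exact test). The p-value of *CCL20* is not adjusted for the 3 tests, and no single time point passed for any of the 3 genes when edgeR was run without the filter.

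Whether the dex effect differed between times was tested by interaction terms in 1 fit over the 24 libraries. The effect differed for *CXCL5* (edgeR adjusted p = 0.00167), *CXCL8* (0.00179), *CXCL1* (0.0111) and *CXCL16* (0.0233), 4 of the 7 tested chemokines against 13.8% of all genes. It did not pass for *CCL2* (0.101), *CXCL2* (0.209) or *CXCL3* (0.846). DESeq2 called *CXCL1*, *CXCL5* and *CXCL16*, and gave no adjusted p for *CXCL8* (unadjusted p = 3.23e-05) or *CXCL3*, those of the 7 tested members with the fewest counts. The call of *CXCL1* was lost without dex 3 h replicate 1 (0.113). *CCL2* passed with replicate number as a block (0.0865), with DESeq2's size factors (0.0891), with at least 10 counts in every library (0.0883), without dex 11 h replicate 1 (0.00502) or 2 (0.0480) and without EtOH 7 h replicate 1 (0.0918), and *CXCL2* without EtOH 5 h replicate 2 (0.0372).

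The steps between neighbouring times were contrasted after the values had been seen. From 1 to 3 h the effect deepened by 0.99 ± 0.27 for *CCL2* (edgeR adjusted p = 0.0400) and by 1.48 ± 0.47 for *CXCL1* (0.0893), 2 of 7 chemokines against 4.39% of all genes. From 3 to 5 h it shrank by 2.21 ± 0.43 for *CXCL1* (0.00200) and by 2.19 ± 0.67 for *CXCL8* (0.0653), 2 of 7 against 6.01%. The step of *CXCL8* from 1 to 3 h, -2.04 ± 0.68, did not pass (0.115), nor did that of *CXCL5* from 3 to 5 h, -0.52 ± 0.18 (0.105). These step calls were close to the threshold and rested on single libraries, apart from that of *CXCL1* from 3 to 5 h. With replicate number as a block the first step of *CXCL1* was lost (0.133, and 0.182 with DESeq2), and those of *CXCL5* from 1 to 3 h and from 3 to 5 h passed (0.0567 and 0.0325). Without 1 library, the step of *CCL2* was lost for dex 1 h replicate 1 (0.210), dex 3 h replicate 1 (0.190), EtOH 1 h replicate 1 (0.103) or 2 (0.102) and EtOH 3 h replicate 2 (0.111). The first step of *CXCL1* was lost without dex 1 h replicate 1 (0.565), dex 3 h replicate 1 (0.442), EtOH 1 h replicate 2 (0.240) or EtOH 3 h replicate 1 (0.225), and lay between 0.101 and 0.104 without EtOH 1 h replicate 1, dex 3 h replicate 2, either dex 7 h library, dex 9 h replicate 1 or any EtOH library of 5 or 11 h. The second step of *CXCL8* was lost without either dex 3 h library (0.188 and 0.195), dex 5 h replicate 1 (0.296), EtOH 3 h replicate 1 (0.137) or EtOH 5 h replicate 1 (0.161). Some uncalled steps passed when 1 library was left out, and the numbers of calls are given in the closing section.

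Between 5 and 11 h the effect on *CXCL16* changed by 1.15 ± 0.31 (edgeR adjusted p = 0.0589), the only one of the 7 to pass, against 2.42% of all genes (481, and 200 to 1110 without 1 library). This call was lost without dex 5 h replicate 1 (0.327), dex 11 h replicate 2 (0.127), EtOH 5 h replicate 2 (0.229) or EtOH 11 h replicate 1 (0.125) or 2 (0.213). *CXCL2* was at -1.35 ± 0.42 in the same contrast (0.123), and passed with at least 10 counts in every library (0.0973) and without dex 11 h replicate 1 (0.0818) or EtOH 5 h replicate 2 (0.0218).

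For each tested chemokine, the gene most like it over the 24 libraries was found by Pearson correlation of log2 CPM, a description in which the libraries share the treatment. For *CXCL1* it was *PLK2*, a stress-responsive kinase (r = 0.962), which fell from 398 and 384 CPM with EtOH to 144 and 144 with dex at 1 h. For *CXCL5* it was *FST*, which encodes the activin-binding protein follistatin (0.967), and for *CCL2* it was *OSGIN2* (0.965). For *CXCL8* it was *CPEB2*, an RNA-binding protein (0.926), and for *CXCL16* it was *FTL*, the ferritin light chain (0.924). *CXCL2* with *C11orf91* (0.790) and *CXCL3* with *CACHD1* (0.782) had weaker nearest patterns. Among the chemokines, *CXCL1* and *CXCL8* were most alike (0.921), followed by *CXCL5* and *CCL2* (0.903).

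Genes of the surrounding pathways were listed by function. Of 37 other chemokine genes 26 were found by symbol after transcripts were joined to genes. The rest were not assessed, and their transcripts may be among the 8945 that joined no gene. Of those found 2 passed the filter, *CXCL14* and *CCL26*, and neither was called at any time by edgeR. At 7 h *CCL26* was at -1.10 ± 0.57 (edgeR adjusted p = 0.184). All 23 chemokine receptors were in the table and 4 passed. *ACKR3*, a scavenging receptor of CXCL12, fell at 5 of 6 times, by 1.07 ± 0.15 at 3 h to 1.48 ± 0.19 at 11 h, and *CXCR5*, the receptor of CXCL13, rose at 5, by 0.72 ± 0.13 at 3 h to 1.08 ± 0.17 at 11 h. At each time from 3 to 11 h 1 of the 4 fell and 1 rose, against 3.27% to 12.4% and 5.31% to 13.4% of all genes. *CCR4* and *CCR7* were not called. The receptors *CCR6*, *CCR10*, *CX3CR1*, *CXCR6*, *CXCR2*, *CXCR1* and *CCR2*, which bind chemokines described here, did not pass the filter, with 84, 80, 29, 25, 22, 1 and 0 counts in the 24 libraries together. Of 6 genes for shedding or cleaving chemokines 4 passed. At 5 h 1 of the 4 fell and 1 rose, against 11.9% and 11.2% of all genes, and likewise at 7 h (12.4% and 13.4%). None was called at the other times. The metalloprotease *ADAM17* fell by 0.26 ± 0.11 at 5 h and 0.21 ± 0.09 at 7 h (edgeR adjusted p = 0.0859 and 0.0864). *ADAM10*, which cuts CXCL16 and CX3CL1 from the membrane, rose by 0.25 ± 0.10 and 0.21 ± 0.07 at those times (0.0903 and 0.0373).

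Of 28 genes for cytokines that induce chemokines, cytokine and Toll-like receptors, and the adaptors and kinases that signal from them, 16 passed the filter. At 1 h 1 of the 16 rose and none fell (0.523% and 0.342% of all genes), at 3 h 4 rose and 3 fell (7.66% and 5.29%), and at 5 h 7 rose and none fell (11.2% and 11.9%). At 7 h 6 rose and none fell (13.4% and 12.4%), at 9 h 5 rose and 1 fell (9.79% and 8.42%), and at 11 h 3 rose and none fell (5.31% and 3.27%). *IL6R*, the receptor of interleukin-6, rose by 2.13 ± 0.16 at 3 h and 2.61 ± 0.17 at 9 h, and *IL17RC*, a receptor subunit for interleukin-17, by 1.2 ± 0.17 and 1.07 ± 0.16. *IL6ST*, the signalling partner of IL6R, rose at all 6 times (0.49 ± 0.11 at 1 h, 1.49 ± 0.12 at 9 h), and *IL1R1*, the receptor of interleukin-1, at 5, 7 and 9 h (0.71 ± 0.11 at 5 h). *TNF* and *IL17A* had no count in any library.

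Of 18 genes for NF-kappaB subunits, their inhibitors and the IKK kinases that activate them, 17 were found by symbol and tested. At 1 h 2 rose and 1 fell, at 3 h 4 rose and 3 fell, and at 5 h 5 rose and 3 fell. At 7 h 4 rose and 5 fell, at 9 h 4 rose and 3 fell, and at 11 h 3 rose and none fell. The shares over all genes were those just given. *NFKBIA*, which encodes the inhibitor IkappaB-alpha, rose at every time, from 68.7 and 78.5 CPM with EtOH to 232 and 236 with dex at 1 h (1.68 ± 0.12, edgeR adjusted p = 1.37e-08). *TNFAIP3*, the ubiquitin-editing inhibitor A20, also rose at every time, by 0.82 ± 0.22 at 3 h to 2.01 ± 0.22 at 9 h. *NFKB2* fell at 3 to 9 h, by 1.02 ± 0.16 at 3 h and 1.45 ± 0.16 at 9 h, and *RELB*, its dimer partner, at 5 to 9 h, by 1.39 ± 0.36 at 5 h.

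All 11 genes of a list drawn up around AU-rich mRNA decay were tested. The list was broader than proteins that bind AU-rich elements, since it held the ribonuclease *ZC3H12A* and the phosphatase *DUSP1*. At 1 h 3 of the 11 rose and none fell, against 0.523% and 0.342% of all genes. At 3 h and again at 7 h 5 rose and 1 fell (7.66% and 5.29%, then 13.4% and 12.4%), and at 5 h 5 rose and none fell (11.2% and 11.9%). At 9 h 6 rose (9.79%) and at 11 h 4 rose (5.31%), and none fell. *ZFP36*, whose protein tristetraprolin binds AU-rich elements and speeds decay, rose from 10.5 and 12.1 CPM with EtOH to 55.5 and 59.1 with dex at 1 h (2.34 ± 0.15, edgeR adjusted p = 4.80e-09) and by 2.93 ± 0.14 at 3 h. *ZC3H12A*, the ribonuclease regnase-1, rose by 1.13 ± 0.18 at 1 h and 1.65 ± 0.16 at 3 h. *DUSP1*, a phosphatase that turns off the kinase p38, rose by 0.97 ± 0.12 and 1.43 ± 0.10, and *ZC3H12C* by 0.54 at 3 h. None of these lists was tested as a set, and their part in the change of the chemokines was not tested.

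**Figure D4:**
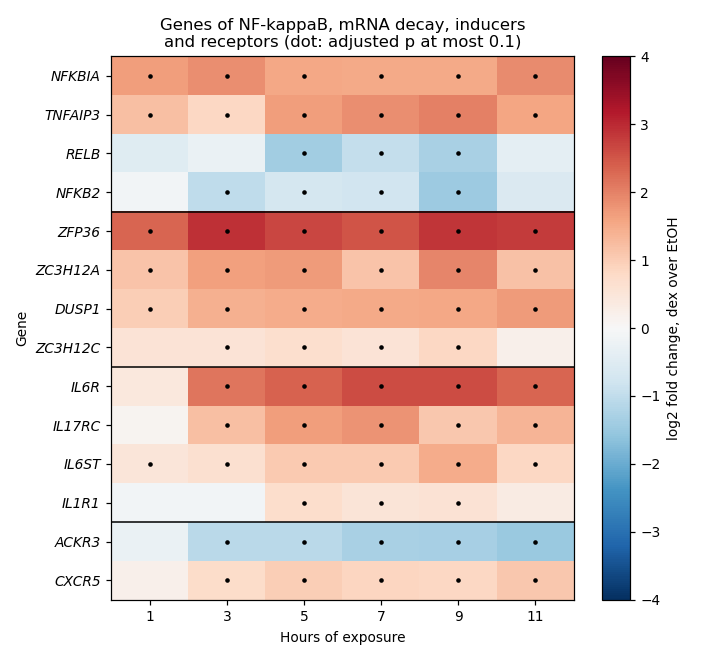
Log2 fold change of dex over EtOH (colour scale from -4, blue, to 4, red) of genes for NF-kappaB inhibitors and subunits, mRNA decay, inducers and their receptors, and chemokine receptors, by hours of exposure, with a dot where the edgeR adjusted p is at most 0.1. *NFKBIA*, *TNFAIP3*, *ZFP36*, *ZC3H12A*, *DUSP1* and *IL6ST* carry a dot at all 6 times, and *ACKR3*, *NFKB2* and *RELB* are blue.

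Markers of cell type also moved with dex, and their part in these results was not tested. The summed level of the 6 epithelial markers had a median of 5028 CPM over the EtOH libraries and 9073 over the dex libraries, with *KRT18* higher by 1.06 ± 0.10 at 5 h and *EPCAM* lower by 0.85. *ABCA3*, the alveolar type II marker that passed the filter, rose by 0.47 ± 0.15 at 3 h and 0.29 ± 0.11 at 7 h (edgeR adjusted p = 0.0406 and 0.0737) and was not called at the other times. The 6 fibroblast markers, led by *COL1A1* at a median of 15.5 CPM, summed to 17.8 CPM with EtOH and 11.9 with dex. *COL1A1* rose by 0.56 ± 0.17 at 3 h and fell by 1.21 ± 0.21 at 5 h, 1.03 ± 0.17 at 7 h and 1.36 ± 0.18 at 9 h. The 11 leukocyte markers summed to a median of 3.35 CPM with EtOH and 3.27 with dex, and neither of the 2 that passed the filter was called at any time.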

How the data were processed

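RNA was taken from A549 cultures in 24 libraries, 2 per treatment and time. Triplicates are stated in the paper's methods, but 2 replicates are given by the labels. Treatment, time and replicate came from the labels, whose treatment text gives 1 h throughout while the duration runs from 1 to 11 h. The authors mapped single-end reads to GENCODE transcripts with Bowtie and deposited raw counts per transcript from samtools, with hg19 in their processing notes. The libraries were stranded, but the placing of reads that match several transcripts and the use of strand in counting are not stated. Nothing was normalized, so depth (above) sets the precision.

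Transcripts were joined to genes through GENCODE 29 on GRCh38 by identifiers without version (110262 of 119207 transcripts, 94.1% of counts), and counts were summed per gene. Unjoined transcripts stayed as features, and the row for unplaced reads held 0 counts. Features kept by filterByExpr over the 12 groups (19897) were tested per time point with edgeR 4.0.16 (TMM, robust quasi-likelihood F-test, R 4.3.3) and Benjamini-Hochberg adjustment over all of them, at a threshold of 0.1. Standard errors were taken as the absolute log2 fold change over √F. Tests across times used 1 fit over 24 libraries, or over the 12 EtOH libraries. Whether replicates were separate cultures beyond being called biological replicates is not given, so p-values cover the spread between these libraries.

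Correlations and trajectories used log2 CPM with a prior count of 2. Promoters, from RefSeq, were searched and aligned with Python 3.11.15 and Biopython 1.88, the exact tests used scipy 1.17.1, and figures matplotlib 3.10.9. Poisson intervals (95%) cover counting error only. The alternatives were DESeq2 1.42.0, its size factors in edgeR, no filter, 10 counts in every library, 1 fit for all times, a replicate block, the most counted transcript, a prior count of 0.5, a threshold of 0.05 and the omission of each library. The members and lists were chosen with earlier results of these data known, and the contrasts of neighbouring times were added after values were seen. Besides the members and the targets of GCs, the genes named are up to 4 per list with the largest mean change among those called alike at 2 or more consecutive times, the most counted marker of each type, and the gene most like each member. *CXCR1*, *CXCR2*, *CCR2*, *CCR6*, *CCR10*, *CXCR6*, *CX3CR1*, *CCR4*, *CCR7*, *CXCL14*, *CCL26*, *TNF*, *IL17A*, *IL18*, *BCL3* and the genes listed at 0 were named after their values were seen.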

Additional observations from a re-analysis of the deposited data

Results flagged for a closer look

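The dex effect differed between the 6 time points, by interaction terms in edgeR over the 24 libraries, for *CXCL5* (adjusted p = 0.00167), *CXCL8* (0.00179), *CXCL1* (0.0111) and *CXCL16* (0.0233). DESeq2 called 3 of these and gave no adjusted p for *CXCL8*. *CXCL16* also differed between 11 h and 5 h (adjusted p = 0.0589), where it was at 0.03 ± 0.21 and -1.13 ± 0.22. *CXCL1* and *CCL2* had a deeper effect at 3 h than at 1 h (adjusted p = 0.0893 and 0.0400), and *CXCL1* and *CXCL8* a shallower one at 5 h than at 3 h (adjusted p = 0.00200 and 0.0653), in contrasts chosen after the values were seen. The causes were not tested.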

How the results depend on the processing

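No call reversed under any alternative. Of 486 fold changes of members under alternatives, 463 kept their direction and side of the threshold, 17 lost the call, 1 gained it and 5 uncalled ones changed sign. With at least 10 counts in every library, which leaves the rarer chemokines untested, the called members numbered 1 at 1 h, 2 at 3 h, 4 at 5 h, 3 at 7 h, 4 at 9 h, 2 at 11 h, 3 for the interaction, 2 for 11 h against 5 h, 1 for 3 h against 1 h and 0 for 5 h against 3 h, where the main numbers were 3, 4, 6, 5, 5, 4, 4, 1, 2 and 2. DESeq2 called 2 at 1 h against 3, 3 at 7 h and 4 at 9 h against 5 each, and 3 for the interaction against 4. It called 1 for each of the contrasts of 3 h against 1 h and 5 h against 3 h. It gave no adjusted p for *CXCL8* in the interaction and both contrasts. A threshold of 0.05 left 0 for 11 h against 5 h and 1 for each of those other two contrasts. Leaving out 1 library gave 1 to 3 members at 1 h, 4 at 3 h, 5 to 6 at 5 h, 3 to 5 at 7 h, 3 to 5 at 9 h, 3 to 4 at 11 h, 3 to 5 for the interaction, 0 to 2 for 11 h against 5 h, 0 to 4 for 3 h against 1 h, 1 to 3 for 5 h against 3 h and 0 for the EtOH time course. A lone library was assumed to vary like the others.

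With a prior count of 0.5, 4 of 42 differences in mean log2 CPM moved by more than the replicate spread, to -2.17 for *CXCL1* at 11 h, -1.43 and -0.53 for *CXCL3* at 3 and 9 h and -3.69 for *CXCL8* at 3 h, each further from 0. Over all genes, DESeq2 called 1324 at 3 h, 2660 at 5 h, 2727 at 7 h and 2032 at 9 h against 2576, 4606, 5132 and 3624 with edgeR. Without a filter 307 were called at 1 h, against 172, and in 1 fit over 24 libraries 2971 at 11 h, against 1707. Without 1 library the numbers ran from 94 to 762 at 1 h, 1542 to 3010 at 3 h, 2660 to 5898 at 7 h, 1298 to 6105 at 9 h and 856 to 5870 at 11 h. They ran from 1885 to 4595 for the interaction, 200 to 1110 for 11 h against 5 h, 392 to 1247 for 3 h against 1 h, 722 to 1540 for 5 h against 3 h and 23 to 2249 for the EtOH time course, against 2744, 481, 873, 1195 and 662. Same-numbered libraries of the treatments correlated in their deviations at 0.135, -0.059, 0.026, -0.015, 0.102 and -0.025 over the 6 times, so the numbers were not taken as pairs. With the replicate block, 634 genes were called at 1 h, *CXCL2* among them (1.01, adjusted p = 0.0614), the interaction of *CCL2* passed (0.0865), the step of *CXCL1* from 1 to 3 h did not (0.133) and both steps of *CXCL5* did (0.0567 and 0.0325). The causes were not tested. At 3 to 8 counts per dex library, *CXCL1* and *CXCL8* at 3 h are limited by depth, as are *CXCL8* at 1, 5 and 11 h (4 to 12 counts) and *CXCL3*, *CCL20*, *CCL28* and *CX3CL1* throughout.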

Other observations

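A few other inflammatory genes, chosen after their values were seen, changed sign over the course. *IL18*, an epithelial cytokine, fell by 0.41 ± 0.11 with dex at 3 h (edgeR adjusted p = 0.0151) and rose by 0.52 ± 0.11 at 5 h (0.000172), with 63.2 and 73.5 CPM in the dex libraries at 3 h, 108 and 120.1 at 5 h, and 94.2 and 86.1 then 76.0 and 81.9 in the EtOH libraries. *BCL3*, an atypical IkappaB protein, fell by 0.62 ± 0.15 at 1 h (0.0631) and rose by 0.83 ± 0.14 at 5 h (1.18e-05), with 20.3 and 22.0 CPM against 33.2 and 31.9 at 1 h, and 62.4 and 46.4 against 33.5 and 27.8 at 5 h. The interaction with time passed for both (0.00301 and 0.000289). *CXCL14*, another abundant chemokine of these libraries, ranged from 426 to 1557 counts per dex library and from 465 to 1764 per EtOH library. It was not called at any time. Of the 105 counts of *CX3CL1*, 95 fell on a single transcript (41 in dex and the rest in EtOH libraries), in which 28 of 5747 stretches of 50 bases also occur in transcripts of other genes. Its other 3 transcripts had 5, 3 and 2 counts, all in EtOH libraries.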
